A study of Mus musculus with 12 samples.

Results

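Imprinted genes are transcribed mainly or wholly from the allele of 1 parent. The 42 genes described here are known imprinted genes of the mouse, among them the maternally expressed noncoding RNA Meg3. They were found by gene symbol in the platform annotation of the arrays, and 34 of the 42 had a probe set listed under their symbol alone, of 19938 genes measured in that way. A further 4 (Mirg, Gnas, Snrpn and Ube3a) appeared only in probe sets listed under several symbols, and H19, Kcnq1ot1, Zrsr1 and Peg13 were not listed in the annotation used here.

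The samples were livers of male mice on the C57BL/6J background, 6 wild-type (WT) and 6 carrying the K289R knock-in of LRH-1. LRH-1, encoded by Nr5a2, is a nuclear receptor of liver metabolism, and the K289R change replaces a lysine to which the small protein SUMO is attached. Every one of the 12 mice had gone 24 h without food and then had 6 h of refeeding before the liver was taken, and each array held the RNA of a separate mouse. The labels give neither the age of the mice, nor whether they were littermates, nor whether the knock-in was homozygous. The sample titles do not confine the knock-in to hepatocytes, so a difference in liver RNA need not arise in them.

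Most imprinted genes lie in clusters in which a differentially methylated control region sets which parental copy is active. In the Dlk1-Dio3 domain the maternal copy gives the long noncoding RNAs Meg3, Rian and Mirg with the small RNAs embedded in them, and the paternal copy gives the protein-coding genes Dlk1, Rtl1 and Dio3. Many imprinted genes regulate growth before birth, and in the mouse liver several of them, such as Igf2, H19 and Dlk1, are largely silenced after birth.

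Values are given as linear intensities of probe sets, whose median per array was 26.8 to 29.2. No call of presence per probe set was used here. Signal was not told from background below the mean of those medians, 27.8, so the 14 measured imprinted genes with a mean under it are set apart below as dim and get no fold change. Log2 differences of dim genes describe the intensities, background included, and are not the size of a change in transcript. Intensities of different probe sets are not compared with each other. The arrays correlated at 0.979 to 0.991 on the log2 scale. Hepatocyte markers had a mean log2 intensity of at least 11.8 on every array. Nr5a2 measured 303 ± 27.1 (SD, n = 6) in WT and 324 ± 18.4 (SD, n = 6) in K289R. This value reads how much transcript there is, whichever allele is carried, and is thus no check of the labelled genotype. The 11 measured markers of pancreatic acinar cells averaged 8.65 (log2) in mouse K289R 1 and 9.23 in mouse K289R 3, where WT mice gave 4.32 to 4.52. The 14 acute phase genes averaged 9.50 in WT 1 and 9.69 in WT 3, and 7.82 to 8.14 in the remaining WT mice. Results are therefore also given without these arrays where that changes a call.

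Among the 34 measured imprinted genes, Meg3 rose in K289R liver, none fell, and 33 did not pass an adjusted p of 0.05. Over all 19938 genes, 0.481% were called higher and 0.0903% lower by the same rule, 0.572% in all. The median log2 difference (K289R minus WT) of the 34 genes was -0.05, beside -0.01 over all genes, and 12 of them had a positive difference. Before adjustment, 4 genes were higher (Meg3, Rian, Igf2r and Commd1) and 4 lower (Peg10, Phlda2, Rtl1 and Impact) at a p under 0.05. Over all genes 6.42% were higher and 5.61% lower at that threshold. The groups did not overlap for Meg3, Rian and Igf2r, each higher on every K289R array than on any WT array, a pattern met by 0.853% of all genes.

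Meg3 is a spliced long noncoding RNA at the start of the maternally expressed stretch of the Dlk1-Dio3 domain. In WT liver its intensity ran from 40.7 through a median of 43.0 to 51.0. In K289R liver it ran from 108 through a median of 138 to 149. The lowest K289R array, K289R 2, lay far above the highest WT array, WT 1, so the groups did not overlap. The means were 44.9 ± 4.30 and 134 ± 14.5 (SD, n = 6 each), a 2.98-fold rise with a log2 difference of 1.58 (95% interval 1.40 to 1.76, adjusted p = 1.53e-08). By p value Meg3 ranked 3 of all genes, and by log2 difference 15. An exact two-sided permutation test of the mean log2 difference gave p = 0.00216, the smallest that the 924 splits of 6 against 6 arrays allow. Meg3 was known to differ from earlier results on these same arrays, so these tests are not independent evidence.

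The Meg3 promoter is printed because Meg3 carries the largest difference among the imprinted genes measured. RefSeq gives Meg3 more than 1 start site, and 2 windows of 300 bases, from 250 before to 50 after a start, were read from its table (GRCm38.p6, plus strand). Capitals mark letters that matched a motif searched on both strands. In the first window, at chr12:109540746-109541045, they mark TGACGTCA, the palindromic cAMP response element, which begins 57 bases before the start site. In the second, at chr12:109545148-109545447, they mark the reverse complement of AAGGTCA, the core half-site bound by LRH-1 and many other nuclear receptors, and this match begins 141 bases before the start.
Meg3, first window: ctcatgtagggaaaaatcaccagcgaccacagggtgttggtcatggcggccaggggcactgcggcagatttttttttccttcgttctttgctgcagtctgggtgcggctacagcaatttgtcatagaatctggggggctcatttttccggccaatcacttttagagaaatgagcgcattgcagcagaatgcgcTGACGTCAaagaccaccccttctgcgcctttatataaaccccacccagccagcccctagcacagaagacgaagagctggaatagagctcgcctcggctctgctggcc
Meg3, second window: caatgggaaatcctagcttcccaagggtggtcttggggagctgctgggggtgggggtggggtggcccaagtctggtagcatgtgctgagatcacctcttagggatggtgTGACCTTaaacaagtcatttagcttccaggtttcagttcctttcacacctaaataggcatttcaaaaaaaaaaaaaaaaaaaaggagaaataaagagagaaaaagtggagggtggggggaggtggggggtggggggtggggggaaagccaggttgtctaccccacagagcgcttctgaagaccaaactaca
The first window held 13 CpG dinucleotides and the second 1, beside a median of 7 over the 32851 promoter windows of the table. TGACGTCA was present in 1.79% of those windows and AAGGTCA in 4.72%. The longer LRH-1 motif CAAGGNCA, which overlaps the shorter one, was present in 6.71% of windows and in neither window of Meg3. Of 28 imprinted genes with a promoter window, TGACGTCA was found in Meg3, Peg3, Usp29 and Zdbf2, AAGGTCA in Meg3, and CAAGGNCA in none. These genes had 39 windows, so a count of genes is not a share of windows. Whether the matches of Peg3 and Usp29, genes of the same cluster, are the same site was not examined. A match describes letters in a window and not a bound site.

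Rian and Mirg are the noncoding RNAs that follow Meg3 on the maternal copy. Rian was dim and did not pass the test, and Mirg had no probe set of its own. Rian hosts a series of C/D box small nucleolar RNAs. Its own probe set ran from 8.04 through a median of 9.39 to 10.5 in WT and from 10.5 through 13.2 to 14.5 in K289R. No K289R value fell within the WT range, but the highest WT array (WT 3) and the lowest K289R array (K289R 4) nearly touched. The log2 difference of Rian was 0.44 (95% interval 0.23 to 0.65), and its adjusted p of 0.0522 missed the threshold. The call was gained, among other settings, without array K289R 1 (adjusted p = 0.0422), without K289R 4 (adjusted p = 0.0279), and with arrays at equal medians (adjusted p = 0.0222). In 16 of 23 alternative settings Rian did not pass, with adjusted p up to 0.212. Within groups of 6, log2 values of Meg3 and Rian had r = 0.22 and rho = 0.38 in WT and r = -0.05 and rho = 0.37 in K289R (exact permutation, adjusted over 2 relations, p = 0.951 for both r and 0.497 for both rho). Without the 2 arrays farthest from the Meg3 median, r over 4 arrays was 0.84 in WT and 0.89 in K289R, so it rested on which arrays were kept.

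A second probe set, listed under both Rian and the small nucleolar RNA AF357355, ran from 19.1 through 20.2 to 23.2 in WT and from 22.3 through 24.2 to 31.0 in K289R. Of its K289R arrays, 5 lay above all WT arrays, and the log2 difference was 0.29 (adjusted p = 0.248 over all 35556 rows). The probe set listed under both Mirg, the last long noncoding RNA of the domain, and its embedded microRNA gene Mir410 ran from 4.43 through 4.97 to 6.12 in WT and from 6.83 through 9.09 to 11.2 in K289R. The groups did not overlap, as for 0.627% of all rows in this direction. Its log2 difference was 0.78 (95% interval 0.51 to 1.04, adjusted p = 0.0245 over all rows, by which rule 0.169% of rows were called higher). The call was lost without K289R 1 and 3 (log2 difference 0.66, adjusted p = 0.122), and also when WT 1 and 3 were left out instead (0.79, adjusted p = 0.0688). Because each of these probe sets carries several symbols, it was counted for no gene.

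None of the paternally expressed genes of the domain passed the test. Dlk1, a transmembrane protein of the Notch ligand family that restrains fat cell formation, ran from 46.6 through 57.4 to 70.5 in WT and from 38.5 through 55.4 to 59.5 in K289R. These ranges overlapped widely, and the log2 difference was -0.16 with a 95% interval of -0.39 to 0.08. Rtl1, a retrotransposon-derived gene required in the placenta, was dim, from 20.0 through 21.3 to 25.0 in WT and from 14.8 through 18.4 to 20.3 in K289R. Of the K289R arrays 5 lay below all WT arrays, and the log2 difference of -0.29 (95% interval -0.47 to -0.11) had an adjusted p of 0.159. Dio3, the deiodinase that inactivates thyroid hormone, was dim as well. Its WT values spanned 10.8 to 14.1 (median 12.4) and enclosed the K289R values, which began at 11.5 (median 12.5), with a log2 difference of 0.01 (95% interval -0.14 to 0.15).

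**Figure D1:**
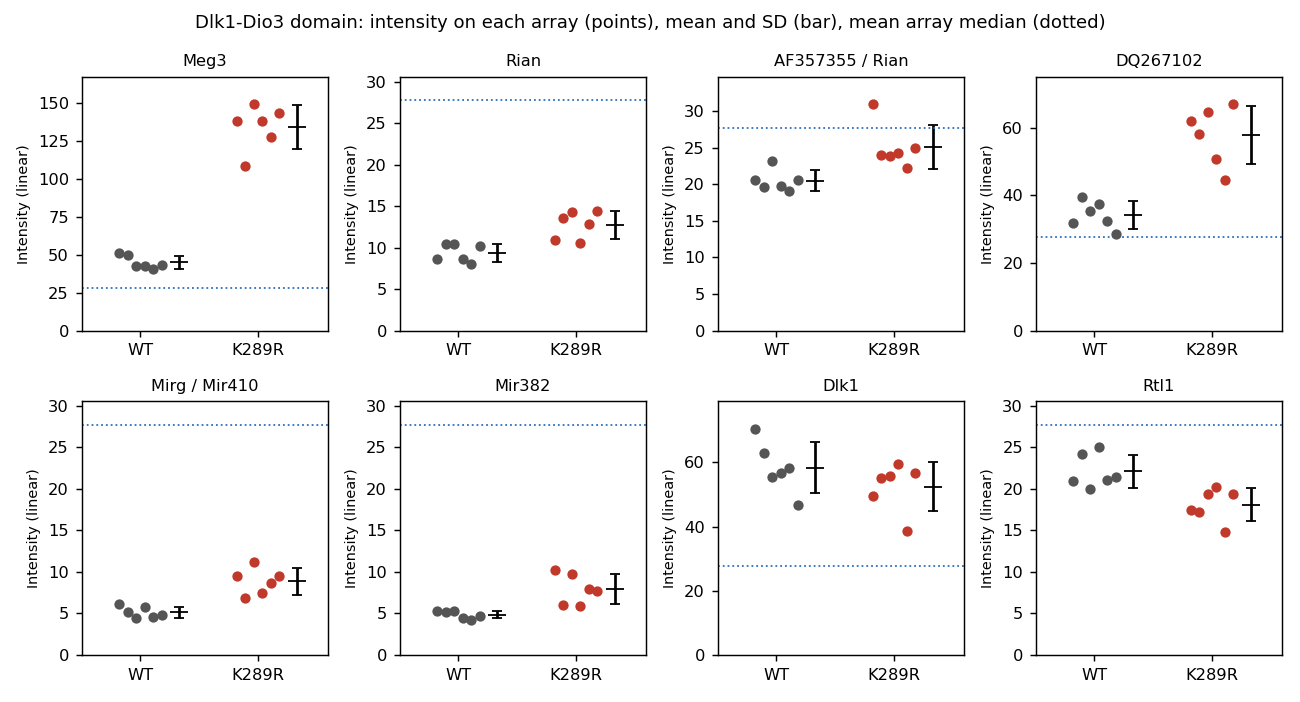
Linear intensity of 8 probe sets of the Dlk1-Dio3 domain on each of the 12 arrays (grey points, 6 WT; red points, 6 K289R), with the group mean and SD as a bar and the mean array median of 27.8 as a dotted line. Meg3 lies at 40.7 to 51.0 in WT and 108 to 149 in K289R, whereas the ranges of Dlk1 and of Rtl1 overlap.

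The embedded small RNA genes of the domain were read from the arrays as well. RefSeq places 103 genes from Dlk1 to Dio3, and 48 of them had a probe set of their own. Of the 45 noncoding genes among these, 4 were called higher (Meg3, the small nucleolar RNA gene DQ267102, Mir382 and Mir329) and none lower. Over all genes the shares were 0.481% and 0.0903%. Meg3 was chosen with its difference known, and Mir382 and Mir329 were dim. The median log2 difference of the 45 genes was 0.06, with 33 positive, and 33 of the 45 were dim. The count of 4 was 2 without K289R 1 and 3 and 1, Meg3 alone, without WT 1 and 3 as well. A probe set named for a microRNA gene reads RNA of the hairpin region, and mature microRNA and host transcript were not told apart.

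DQ267102 lies in the stretch of small nucleolar RNA genes after the start of Rian. It ran from 28.5 through 33.8 to 39.4 in WT and from 44.6 through 60.0 to 66.9 in K289R, so the groups did not overlap. The rise was 1.69-fold (log2 difference 0.75, adjusted p = 0.00152), and it was 0.67 with an adjusted p of 0.0657 without K289R 1, K289R 3, WT 1 and WT 3. The other small nucleolar RNA genes measured there, DQ267101 and AF357341, were dim and had log2 differences of -0.05 each.

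Mir382 ran from 4.26 through 4.91 to 5.32 in WT and from 5.91 through 7.83 to 10.2 in K289R. Its groups did not overlap, and the log2 difference was 0.68 (adjusted p = 0.0172). It was highest on K289R 1 (10.2) and K289R 3 (9.78), the arrays with pancreatic acinar transcripts, and their part in it was not tested; without them the difference was 0.49 (adjusted p = 0.0730). The Mir382 call was also lost without WT 4 (adjusted p = 0.0502). Mir329 ran from 6.85 through 7.03 to 7.84 in WT and from 8.06 through 9.62 to 10.7 in K289R, again without overlap, with a log2 difference of 0.39 (adjusted p = 0.0299). The Mir329 call was lost without any of WT 1, WT 2, WT 4, WT 5, K289R 2, K289R 3, K289R 4 or K289R 5 (adjusted p up to 0.0824). Neither gene was called with 16 added to each intensity before the log. The calls of Mir382 and Mir329 were thus close to the threshold, at intensities well under the array median.

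A split of the microRNA genes by place, made after their values were seen, described where the differences lay. The 8 genes between Meg3 and Rian, from Mir673 to Mir136, had a median log2 difference of 0.01 and a range of -0.14 to 0.06, with no gene at an unadjusted p under 0.05. The 30 genes from Mir379 on had a median of 0.11 and a range of -0.16 to 0.68, and 8 of them had an unadjusted p under 0.05, all higher in K289R, beside 6.42% of all genes in that direction; as the split followed the values, nothing is read from this count. Besides Mir382 and Mir329 these were Mir380 (0.49, adjusted p = 0.0753), Mir377 (0.42, adjusted p = 0.0572), Mir369 (0.28), Mir485 (0.26), Mir300 (0.26) and Mir412 (0.21). Of the 30 genes 5 lay above the array median. Mir485 was among these 5, and the other genes just named were dim. Mean intensities in WT and K289R were 3.45 and 4.91 for Mir380, and 4.03 and 5.45 for Mir377. Mir380 passed without K289R 4 (adjusted p = 0.0165) and Mir377 without K289R 6 (adjusted p = 0.00799). Between Rian and Mir379, Mir341 and Mir370 had log2 differences of 0.14 and -0.07.

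The mature sequences of the microRNA genes with the largest differences, and of Mir410 from the probe set shared with Mirg, are printed as RefSeq gives them (GRCm38.p6), since these are the products that the domain's transcript could release. All 40 measured microRNA genes of the domain matched the RefSeq table, with 76 mature sequences. Capitals mark the seed, bases 2 to 8, which pairs with target RNAs.
miR-382-5p: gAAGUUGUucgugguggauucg
miR-382-3p: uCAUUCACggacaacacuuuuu
miR-329-5p: aGAGGUUUucugggucucuguu
miR-329-3p: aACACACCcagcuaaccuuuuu
miR-380-5p: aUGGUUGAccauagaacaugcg
miR-380-3p: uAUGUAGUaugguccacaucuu
miR-377-5p: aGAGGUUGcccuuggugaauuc
miR-377-3p: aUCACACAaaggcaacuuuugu
miR-410-5p: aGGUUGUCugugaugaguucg
miR-410-3p: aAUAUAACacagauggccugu
None of these 10 sequences shared a seed with another of them. Over the mature sequences that the RefSeq table listed for the measured domain genes and Mir410, 3 seeds occurred more than once. They were shared by the pairs miR-379-3p and miR-411-3p, miR-376b-5p and miR-376c-5p, and miR-410-5p and miR-494-5p. For Mir376c, Mir487b and Mir539 only the 5p sequence was listed, and for Mir485 only the 3p sequence. Seeds of the unlisted sequences were not compared, so further shared seeds could be missed. Mir379 and Mir411 had log2 differences of 0.05 and 0.16, Mir376b and Mir376c of 0.10 and 0.01, and Mir494 of -0.07.

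Genes flanking the domain were measured for comparison. Before Dlk1, Wdr25 and Begain had log2 differences of -0.04 and 0.00. After Dio3, Ppp2r5c, a regulatory subunit of protein phosphatase 2A, measured 129 ± 25.7 (SD, n = 6) in WT and 166 ± 28.9 (SD, n = 6) in K289R. The log2 difference was 0.37 with an adjusted p of 0.320, and the other 3 probe sets of this gene had 0.26, 0.33 and 0.08.

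**Figure D2:**
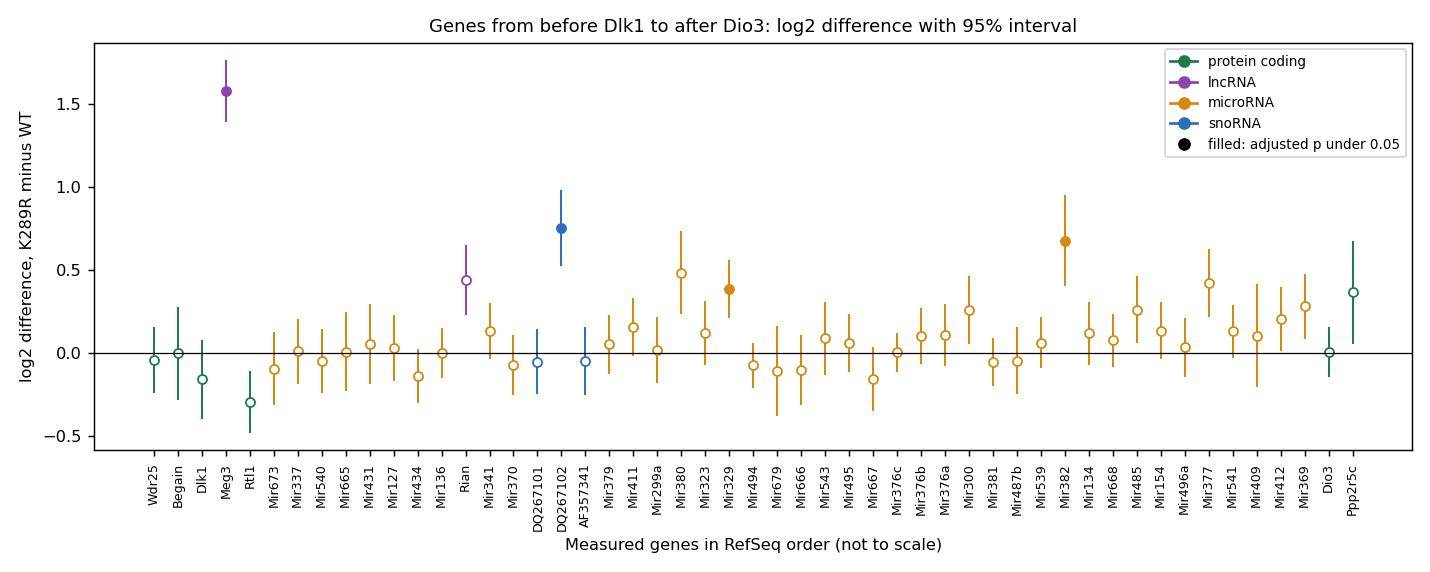
Log2 difference (K289R minus WT) with its 95% interval for each measured gene from before Dlk1 to after Dio3, in RefSeq order and not to scale, coloured by gene type, with filled points where the adjusted p was under 0.05. Meg3 stands at 1.58, the microRNA genes between Meg3 and Rian lie between -0.14 and 0.06, and Mir382, Mir329 and DQ267102 are the other filled points.

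Outside the Dlk1-Dio3 domain the clearest separation was in Igf2r. It encodes the cation-independent mannose 6-phosphate receptor, which takes IGF2 to the lysosome for breakdown and is expressed from the maternal copy. Igf2r ran from 121 through 134 to 147 in WT and from 153 through 159 to 176 in K289R, so every K289R array lay above every WT array. The means were 134 ± 9.84 and 161 ± 8.48 (SD, n = 6 each), 1.20-fold apart, with a log2 difference of 0.27 (95% interval 0.13 to 0.41) and an adjusted p of 0.0906. It passed when the dim genes were left out of the test (adjusted p = 0.0487) and with 16 added to each intensity (adjusted p = 0.0387). In 22 of 24 alternative settings Igf2r did not pass, with adjusted p up to 0.534. Airn, the paternally expressed noncoding RNA that runs antisense across the start of Igf2r, measured 66.8 ± 11.7 (SD, n = 6) in WT and 86.2 ± 11.5 (SD, n = 6) in K289R, with a log2 difference of 0.38 and an adjusted p of 0.174. Whether these probe sets tell the strands apart is not given here. Igf2 itself, the fetal growth factor that Igf2r clears, ran from 23.4 through 31.2 to 35.6 in WT and from 23.3 through 29.2 to 35.3 in K289R. The Igf2 ranges nearly coincided, with a log2 difference of -0.05 (95% interval -0.28 to 0.19).

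Commd1, a copper transport and NF-kB regulator, ran from 24.2 through 28.1 to 30.6 in WT and from 29.6 through 30.7 to 32.8 in K289R. Of its K289R arrays 3 lay above all WT arrays, and the log2 difference was 0.16 (adjusted p = 0.383). Its mean was only just above the array median.

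The remaining genes at an unadjusted p under 0.05 were lower in K289R, and none passed over all genes. Peg10, a retrotransposon-derived gene needed for placental development, ran from 75.3 through 92.8 to 210 in WT and from 51.8 through 73.7 to 97.3 in K289R. The WT spread was wide, with array WT 3 at 210 and WT 6 at 134. WT 3 is 1 of the arrays with acute phase transcripts, and their part in the difference was not tested. The log2 difference of -0.53 (adjusted p = 0.350) was -0.34 without WT 3. Phlda2, which restrains placental growth and was dim, ran from 22.5 through 29.3 to 37.8 in WT and from 18.4 through 20.5 to 27.8 in K289R, with 4 K289R arrays below all WT arrays. Its log2 difference was -0.45 (95% interval -0.70 to -0.19, adjusted p = 0.131), and it passed without K289R 6, the highest array of its group (-0.52, adjusted p = 0.0466). In 22 of 23 alternative settings Phlda2 did not pass, with adjusted p up to 0.449. Impact, an inhibitor of the amino acid sensing kinase GCN2, ran from 111 through 119 to 159 in WT and from 92.0 through 104 to 133 in K289R. Its groups overlapped, with a log2 difference of -0.21 (adjusted p = 0.414).

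**Figure D3:**
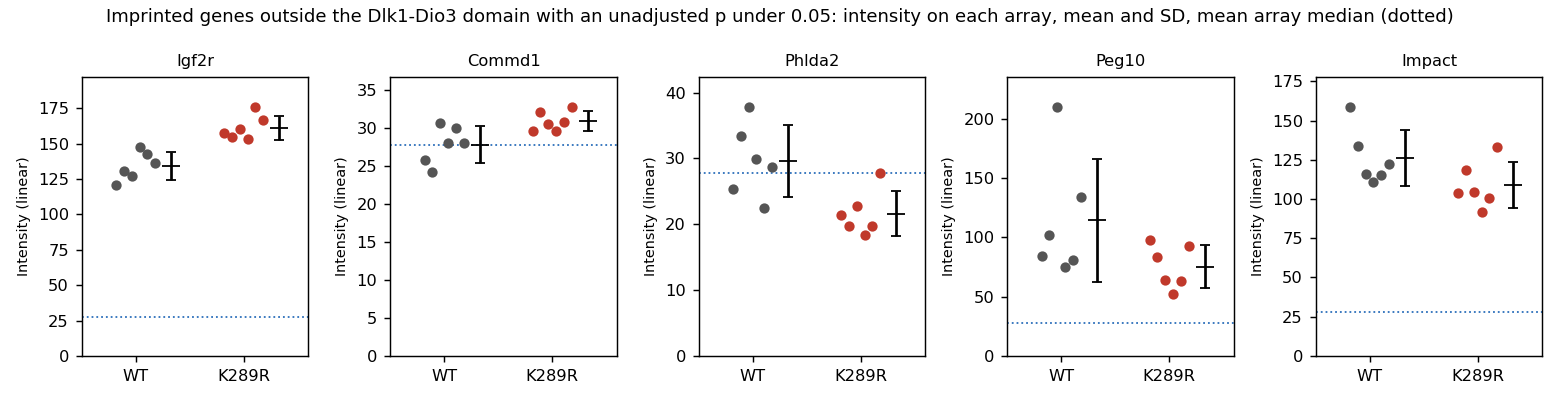
Linear intensity of Igf2r, Commd1, Phlda2, Peg10 and Impact on each array (grey, 6 WT; red, 6 K289R), with mean and SD as a bar and the mean array median as a dotted line. The Igf2r groups are apart (121 to 147 against 153 to 176), and the other 4 overlap, Peg10 with a WT array at 210.

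Among growth regulators of the best known imprinted loci none passed the test. Plagl1, a zinc finger factor that regulates other imprinted genes, ran from 24.1 through 30.03 to 35.1 in WT and from 25.4 through 25.9 to 30.5 in K289R (log2 difference -0.13, 95% interval -0.32 to 0.06). Cdkn1c, an inhibitor of cyclin-dependent kinases, ran from 28.6 through 31.8 to 36.5 in WT and from 21.7 through 30.6 to 32.6 in K289R (-0.18, interval -0.39 to 0.03). Grb10, an adaptor that restrains insulin and IGF1 receptor signalling, ran from 29.4 through 30.3 to 31.2 in WT and from 29.7 through 31.5 to 36.0 in K289R (0.07, interval -0.06 to 0.20). The groups overlapped for all 3 genes, and their levels lay close to the array median.
Peg3, a zinc finger gene of growth and maternal behaviour, ran from 24.2 through 31.6 to 35.3 in WT and from 22.5 through 27.0 to 32.2 in K289R (log2 difference -0.15, interval -0.36 to 0.06). Mest, a gene of the hydrolase family that marks growing tissue, ran from 27.7 through 29.6 to 38.6 in WT and from 26.2 through 30.4 to 35.5 in K289R (-0.07, interval -0.28 to 0.15). The probe set listed under both Gnas, which encodes the stimulatory G protein subunit, and Gnasas1 measured 207 ± 14.6 (SD, n = 6) in WT and 202 ± 7.17 (SD, n = 6) in K289R (log2 difference -0.03, interval -0.16 to 0.10).

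The Kcnq1 cluster, controlled by the noncoding RNA Kcnq1ot1, had 7 measured genes, of which none passed and 6 had a negative log2 difference (Kcnq1 turned positive, 0.02, with arrays at equal medians). Beside Cdkn1c and Phlda2 these were the tetraspanin Cd81 (0.10), the organic cation transporter Slc22a18 (-0.08), the splicing-associated Tssc4 (-0.09), the potassium channel Kcnq1 (-0.02) and the dim transcription factor Ascl2 (-0.09). Cd81 measured 1767 ± 198 in WT and 1900 ± 228 in K289R, and Slc22a18 measured 526 ± 65.9 and 495 ± 45.0 (SD, n = 6 each). Both lay far above the array median, and for neither was the difference of means larger than the SD in WT.

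Among genes of the Peg10 neighbourhood, Sgce, a sarcoglycan, measured 72.4 ± 8.64 (SD, n = 6) in WT and 81.9 ± 15.2 (SD, n = 6) in K289R (log2 difference 0.16). Ppp1r9a, an actin-binding phosphatase regulator, and the dim Asb4 had log2 differences of 0.00 and 0.02, of which Ppp1r9a was 0.03 with arrays at equal medians. Copg2, a coat protein subunit next to Mest, had 0.12, and Trappc9, a vesicle trafficking gene that hosts Peg13, had 0.03. Without K289R 1, K289R 3, WT 1 and WT 3 both turned negative, Copg2 to -0.011 and Trappc9 to -0.0077. None of these passed. The probe set listed under Snurf and Snrpn had a log2 difference of 0.07, and the one that lists Ube3a with 3 other symbols had -0.06.

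The other dim genes had mean intensities between 5.94 and 27.2 in WT, and none passed. They were the Prader-Willi cluster genes Ndn (log2 difference 0.11, and -0.095 without K289R 1, K289R 3, WT 1 and WT 3), Magel2 (-0.13) and Mkrn3 (-0.07), the Peg3 cluster genes Usp29 (-0.12) and Zim1 (-0.06), and Nnat (0.00), Nap1l5 (-0.04) and Zdbf2 (-0.04). At these intensities a lack of change in the probe set says little of the transcript.

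Split by the allele each gene is known to be expressed from, 17 measured genes were labelled maternally and 17 paternally expressed. The labels are per gene, and whether each gene is imprinted in adult liver was not examined. Of the maternally expressed genes 9 had a positive log2 difference, with a median of 0.02, and 4 were higher and 1 lower at an unadjusted p under 0.05. Of the paternally expressed genes 3 had a positive difference, with a median of -0.07, and none was higher and 3 were lower at that threshold. Over all genes 46.0% had a positive difference, 6.42% were higher and 5.61% were lower at that threshold. The 4 maternally expressed genes that were higher include Meg3, chosen with its difference known, and Rian of the same domain. The difference between the allele groups was not tested, and the arrays do not tell alleles apart.

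**Figure D4:**
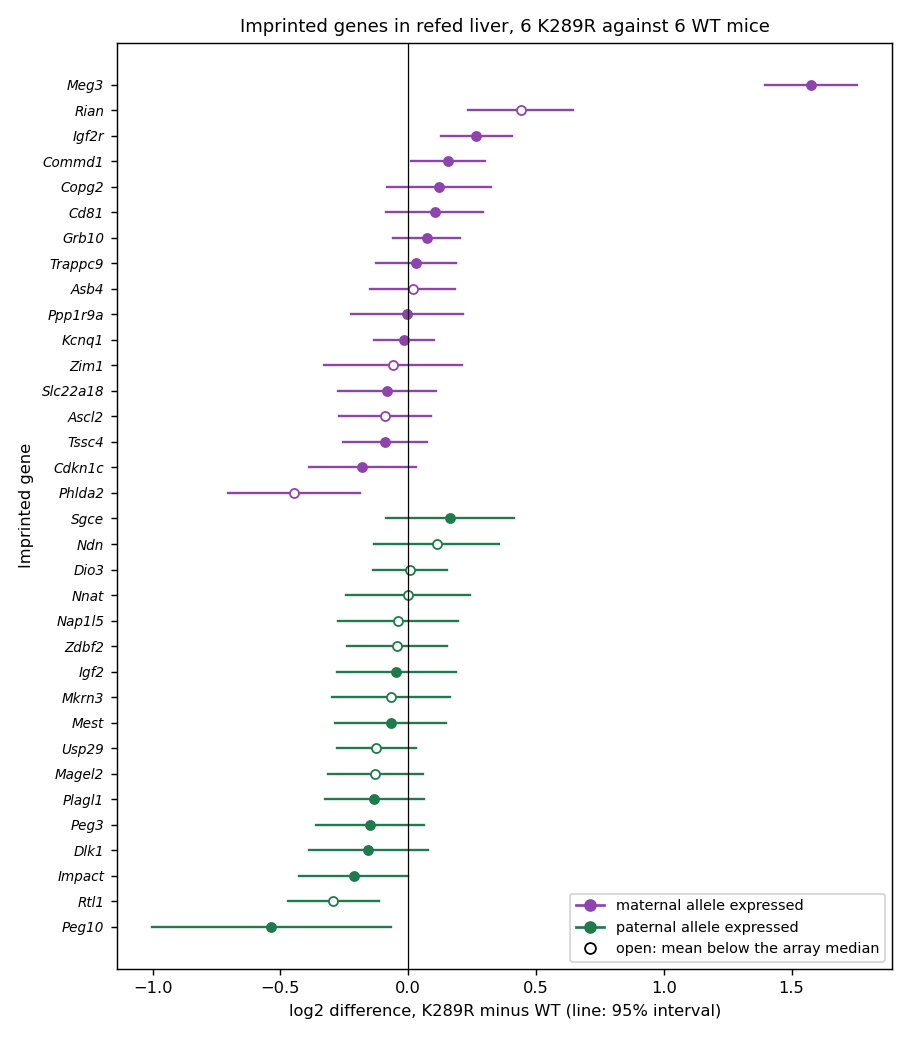
Log2 difference (K289R minus WT) with its 95% interval for the 34 measured imprinted genes. Colours give the allele each gene is known to be expressed from, not measured here: 17 maternal (purple) and 17 paternal (green). Open points mark genes whose mean lay below the array median. Meg3 at 1.58 stands apart from the rest, which lie between -0.53 and 0.44.

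A wider list of imprinted genes gave no call. Of 47 further imprinted genes 41 were measured, and in the limma fit 0 passed. At an unadjusted p under 0.05, 3 were higher (Qpct, Airn and Smoc1) and 2 lower (Klf14 and Tspan32), beside 6.42% and 5.61% of all genes. The median log2 difference of the 41 genes was -0.02. Qpct, a glutaminyl cyclase, measured 44.7 ± 2.85 (SD, n = 6) in WT and 55.6 ± 7.08 (SD, n = 6) in K289R. Its log2 difference was 0.31 with an adjusted p of 0.133. The Qpct groups did not overlap, as for 0.853% of all genes in this direction, but nearly touched (highest WT 47.51, lowest K289R 47.56). Smoc1, a secreted calcium-binding protein, had a log2 difference of 0.24 and the factor Klf14 of -0.20.

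Genes that maintain imprints and DNA methylation were measured in full, 25 of 25, and 0 passed in the limma fit. At an unadjusted p under 0.05, 1 was higher and 1 lower, beside 6.42% and 5.61% of all genes. Trim28, the corepressor that holds methylation at imprinted control regions, measured 156 ± 22.3 (SD, n = 6) in WT and 130 ± 8.38 (SD, n = 6) in K289R, with a log2 difference of -0.25 and an adjusted p of 0.252. The Polycomb subunit Eed had a log2 difference of 0.18 and the DNA methyltransferase Dnmt3a of -0.13 (95% interval -0.29 to 0.03). The list median was 0.00.

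Fetal liver genes that fall silent after birth, listed with their regulators, had 13 of 15 measured and 0 called in the limma fit. Epcam alone had an unadjusted p under 0.05, higher in K289R, beside 6.42% of all genes in that direction. Afp, the fetal albumin homologue, had a log2 difference of -0.13, and Zhx2, a repressor of Afp and H19 in adult liver, of -0.11. In the IGF list (ligands, receptors and binding proteins) 0 of 13 passed in the limma fit. At an unadjusted p under 0.05, 3 genes of the list were higher and 2 lower, beside 6.42% and 5.61% of all genes. Its hormone Igf1 had a log2 difference of -0.03, the insulin receptor Insr of 0.19, the binding protein Igfbp2 of -0.60 (adjusted p = 0.175) and the fasting-induced binding protein Igfbp1 of 1.32 (adjusted p = 0.0629).

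Markers of other cell types were set beside Meg3. In bulk tissue, fewer cells of a type and less RNA per cell cannot be told apart. Endothelial markers were measured in full (10 of 10), and 0 were called. Of them 2 were higher at an unadjusted p under 0.05, beside 6.42% of all genes. Their mean log2 intensities were 6.87 to 7.21 in WT and 7.07 to 7.34 in K289R. All 10 had a positive difference, with a median of 0.10, beside 46.0% of all genes with a positive difference. Stellate markers (10 of 10, 0 called) lay at 6.49 to 6.96 in WT and 6.50 to 6.91 in K289R. Of them 5 had a positive and 5 a negative difference, and 1 was higher at an unadjusted p under 0.05. The ranges of both lists overlapped between the groups. The part of these cell types in the rise of Meg3 was not tested. Kupffer cell markers (10 of 10, 0 called) lay at 6.34 to 6.90 and 6.45 to 7.36, with 8 positive and 2 negative differences. Cholangiocyte markers (6 of 8, 0 called) lay at 4.52 to 4.81 and 4.55 to 4.78. Neural markers (9 of 10, 0 called) lay at 3.75 to 4.01 and 3.68 to 3.97, and pancreatic islet markers (8 of 10, 0 called) at 4.30 to 4.50 and 4.21 to 4.57. Skeletal muscle markers (12 of 12, 0 called) were highest on WT 1 at 6.74 and K289R 3 at 5.63, against at most 4.64 on the other arrays. Acinar markers (11 of 14, 0 called) were high only on K289R 1 and 3 of the 12 arrays. Without those arrays the log2 difference of Meg3 was 1.52 (adjusted p = 6.53e-07), and without WT 1 and 3 as well it was 1.55 (adjusted p = 8.73e-06).

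**Figure D5:**
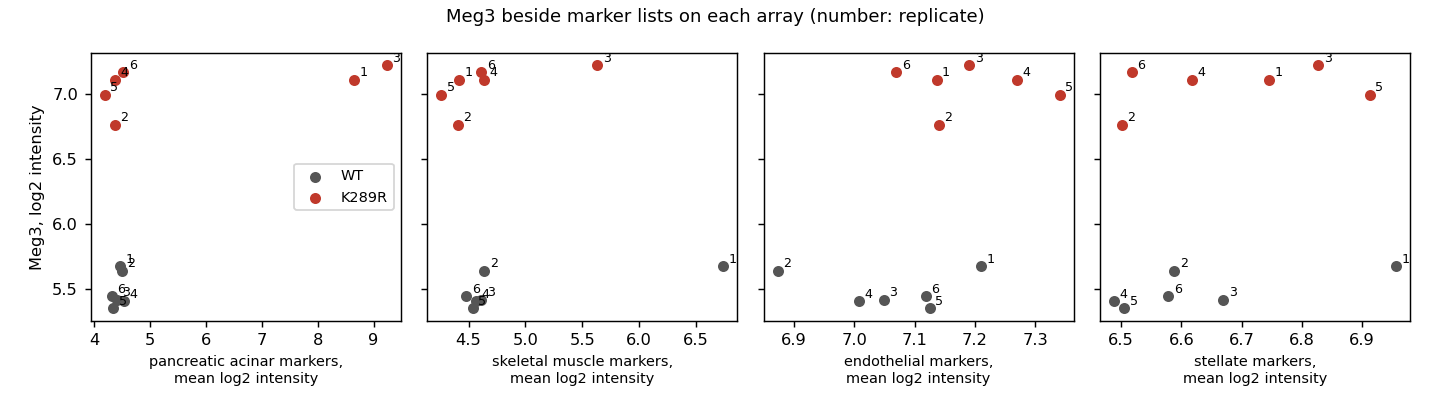
Log2 intensity of Meg3 on each array against the mean log2 intensity of acinar, skeletal muscle, endothelial and stellate markers (grey, 6 WT; red, 6 K289R; numbers are replicates). Arrays K289R 1 and 3 stand apart in acinar markers at 8.65 and 9.23, whereas their Meg3 lies within the range of the other K289R arrays or, for K289R 3, just above it.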

How the data were processed

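The deposited table holds a linear intensity for each probe set on each array. The submitters' processing notes name Affymetrix Expression Console; how it summarized, background-corrected and normalized the signal, and its version and genome build, are not stated there or in the labels. Of 35556 rows, 21789 had 1 gene symbol in the platform annotation, 1621 had several and 12146 were not listed; 21698 of the first matched the RefSeq table by gene ID. For genes with several probe sets, the one brightest on average was taken.

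Log2 was taken without an offset. K289R was compared with WT by limma 3.58.1 (R 4.3.3; lmFit and eBayes, no covariate, 12 arrays), two-sided, with Benjamini-Hochberg adjustment over 19938 genes and a threshold of 0.05. Probe sets with several symbols were tested over all rows. Means ± SD are of linear intensities; the number of arrays limits the precision. The labels call the samples biological replicates. Slides and scan dates were not analysed here.

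The genes and lists were chosen with earlier results of these data known. The lowest, median and highest values per group were given for imprinted genes past the threshold, at an unadjusted p under 0.05 or in a fixed set of well known genes. Other lists gave up to 4 genes of smallest p, and genes outside this rule (Igf1 among them) were chosen after their values were seen. On simulated data for this comparison with 19938 genes, 90 of 100 genes changed 1.5-fold and 99 of 100 changed 2-fold were found, with 7 false among 196 calls. Figures were drawn with matplotlib 3.10.9.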

Additional observations from a re-analysis of the deposited data

Results flagged for a closer look

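A sample far from the others of its group was looked for in 86 groups of 6 arrays, by the gap to the nearest array over the whole range on the log2 scale (Dixon's test at 95%), which chance exceeds in about 5% of groups; it was found in 3. Ndn measured 28.0 on K289R 3, against 17.0 to 19.6 on the other K289R arrays. Zdbf2, a dim gene, measured 6.16 on WT 6, and the rest of its group measured 5.88 to 5.96. WT 1, WT 2, WT 3 and WT 5 held an identical value, which narrows the range the gap is divided by. The probe set listed under AF357355 and Rian measured 31.0 on K289R 1, against 22.3 to 25.0 on the other K289R arrays.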

How the results depend on the processing

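The rise of Meg3 kept its direction and passed under every alternative run, with log2 differences of 1.298 to 1.64. The count of imprinted genes called higher, 1 as reported, was 2 with arrays at equal medians, quantile normalization, a trended and robust variance or array weights (Rian added), and 2 without genes below the array median or with log2(value + 16) (Igf2r added). Noncoding genes of the Dlk1-Dio3 domain called higher numbered 4 as reported, 7 with equal medians, the trended variance or array weights, 2 without dim genes, with log2(value + 16), with all rows tested or without K289R 1 and 3, and 1 without K289R 1, K289R 3, WT 1 and WT 3. Over all genes the 96 higher calls became 60 with all rows, 62 without K289R 1 and 3 and 54 without those 4 arrays, and the 18 lower calls became 29 with quantile normalization, 31 without dim genes and 11 without those 4 arrays. Testing fewer genes or fewer arrays is part of some of these settings; otherwise the cause was not tested.

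With 1 array left out in turn, imprinted genes called higher numbered 1 to 2 and lower 0 to 1, noncoding domain genes called higher 2 to 5 (2 without WT 4), and over all genes 66 to 129 were higher and 12 to 30 lower (30 without K289R 6). The median log2 difference of the imprinted genes lay between -0.09 and -0.01 over all settings.

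Replicate numbers did not pair the arrays: same-number correlations ran from -0.23 to 0.23, and 1 of 6 arrays correlated best with its own number. With the replicate number as a block, 94 genes were higher and 17 lower, 2 imprinted genes were higher (Meg3 at 1.58 and Rian), and Mir329 no longer passed (adjusted p = 0.0554).

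Small log2 differences changed sign. With equal medians Ppp1r9a was 0.033, Nnat 0.037 and Kcnq1 0.022, and with quantile normalization Ppp1r9a was 0.025, Nnat 0.036 and Kcnq1 0.016. With array weights Asb4 was -0.031 and Nnat 0.0032. Without K289R 1 and 3, Dio3 was -0.017, Ppp1r9a 0.044, Ndn -0.0035 and Kcnq1 7.3e-05. Without WT 1 and 3, Igf2 was 0.026, Asb4 -0.0070, Nnat 0.061 and Copg2 -0.0071. Without those 4 arrays, Dio3 was -0.0034, Igf2 0.019, Ndn -0.095, Copg2 -0.011 and Trappc9 -0.0077. With 1 array left out the ranges were -0.079 to 0.069 for Ppp1r9a, -0.063 to 0.055 for Nnat, -0.0103 to 0.068 for Asb4, -0.12 to 0.016 for Igf2, -0.031 to 0.045 for Dio3, -0.15 to 0.019 for Zim1, -0.12 to 0.029 for Nap1l5, -0.098 to 0.0196 for Zdbf2 and -0.012 to 0.076 for Trappc9. Of these genes Copg2 and Trappc9 lay well above the array median.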

Other observations

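Of the 34 measured imprinted genes 6 had an identical intensity on more than 1 array (Dio3, Kcnq1, Rian, Rtl1, Tssc4 and Zdbf2), and 4 of these were below the array median. Dio3 had the same value of 12.5 on 4 arrays, 1 WT and 3 K289R. Zdbf2 had the same value of 5.88 on 4 arrays, all WT.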
